A study of Mus musculus with 12 samples.

Results

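The genes that carry the hypoxia response and glycolysis were followed in RNA-seq of cultured mouse alveolar type II (AT2) cells with and without the aryl hydrocarbon receptor (AhR). They were chosen by name, as the HIF alpha subunits, the enzymes that control their stability, the glycolytic enzymes and other known HIF targets, a list that was drawn up with earlier results of these data known, although its rule uses no measured value. The 35 symbols matched 36 of the 55450 genes counted, because Aldoa has a second gene ID. All 36 were among the 20612 genes that passed the filter on low counts and were tested.

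The pathways meet at ARNT. HIF-1 alpha (Hif1a) and HIF-2 alpha (Epas1) are hydroxylated by the prolyl hydroxylases PHD2 (Egln1) and PHD3 (Egln3) when oxygen is present, and the hydroxylated protein is bound by VHL and degraded. In low oxygen the alpha subunit is spared, pairs with ARNT and raises the transcription of glucose transporters, glycolytic enzymes, Vegfa and other genes. AhR, a receptor for dioxins and many natural ligands, also has to pair with ARNT before it binds DNA. AT2 cells make pulmonary surfactant, renew the alveolar epithelium and are a source of VEGF for the lung capillaries. Because HIF activity is set mainly at the level of the protein, transcript levels of Hif1a and Epas1 do not measure it.

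AT2 cells came from C57BL/6 mice of 6 to 8 weeks. AhRf/f mice carry floxed AhR alleles and no Cre, and Sftpc-Cre;AhRf/f mice carry the same alleles with Cre driven by the promoter of the surfactant protein C gene, so both genotypes are floxed. The cells were enriched by removing those that bound antibodies to CD16/32, CD45, Ter119 or Sca-1, were grown on collagen I and were given PBS or 50 µg/ml of cockroach extract (CRE) for 24 hours. Each of the 4 groups has 3 libraries, numbered 1 to 3. Nothing states which libraries came from separate animals or cultures, so p-values measure only the spread between these libraries.

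Ahr itself was counted in every library. As CPM, a gene's count scaled to the library total after TMM scaling and used here for each gene across libraries, Ahr was 42.9, 43.8 and 45.1 in the AhRf/f PBS libraries and 56.2, 50.5 and 50.1 in the AhRf/f CRE libraries. It was 49.6, 40.2 and 45.7 in the Sftpc-Cre;AhRf/f PBS libraries and 51.5, 37.7 and 49.5 in the Sftpc-Cre;AhRf/f CRE libraries, so the genotypes overlapped. A count over the whole gene cannot show the loss of a floxed segment. Cyp1b1, a classical AhR target, lay at 344 to 465 CPM in the 6 AhRf/f libraries and at 31.8 to 63.9 CPM in the 6 Sftpc-Cre;AhRf/f libraries. The other AhR targets listed were lower in Sftpc-Cre;AhRf/f cells by less. With PBS the log2 fold change between genotypes was -3.10 for Cyp1b1, -1.67 for Cyp1a1, -1.49 for Ahrr, -1.33 for Nqo1 and -0.98 for Tiparp. By the edgeR fit described below, Cyp1a1 and Ahrr had adjusted p of 0.193 and 0.395 there. Arnt ranged from 28.9 to 39.2 CPM over the 12 libraries.

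Library totals ranged from 68878065 to 80935797 counts, of which the genes described here took 0.693 to 0.807%. Summed AT2 markers were at 7316 to 8292 CPM with PBS and at 6369 to 7039 CPM with CRE in AhRf/f cells, lower in 3 of 3 pairs. The Sftpc-Cre;AhRf/f libraries were at 4259, 6016 and 8401 CPM with PBS and at 4426, 6075 and 8753 CPM with CRE, higher in 3 of 3 pairs, and those numbered 1 and 2 lay below all AhRf/f libraries. Over the 12 libraries Sftpc lay at 3086 to 6492 CPM, while the club cell marker Scgb1a1 was at 3959 to 8069 CPM in the same libraries. Summed AT1 markers were lower with CRE than with PBS in 6 of 6 pairs of libraries with the same number, at 2763 to 3519 against 1950 to 2514 CPM in AhRf/f cells and at 3026 to 4049 against 2302 to 2907 CPM in Sftpc-Cre;AhRf/f cells. Summed club and ciliated cell markers (4072 to 8295 CPM), fibroblast markers (369 to 870 CPM), endothelial markers (48.8 to 106 CPM) and alveolar macrophage markers (43.9 to 174 CPM) were also lower with CRE in 6 of 6 pairs. The 4 libraries numbered 1 held 137 to 215 CPM of leukocyte markers against 13.6 to 58.8 CPM in the others. In bulk RNA, fewer cells of a type and less RNA per cell cannot be told apart, and the part these levels play in the results below was not tested.

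Levels between genes are compared as FPKM (fragments scaled to exon length and to library total). Glycolytic enzymes stood at the top. Pyruvate kinase Pkm, which makes pyruvate in the last step, averaged 356 ± 35.1 FPKM (SD over the 12 libraries), the aldolase Aldoa 309 ± 26.5, phosphoglycerate kinase Pgk1 236 ± 14.1, lactate dehydrogenase Ldha 138 ± 11.1, the enolase Eno1 103 ± 6.29 and the phosphoglycerate mutase Pgam1 101 ± 8.18 FPKM. The ranges of mean ± SD overlap for Pkm and Aldoa, and for Eno1, Pgam1 and the triosephosphate isomerase Tpi1 (99.5 ± 9.71 FPKM). The second Aldoa gene ID held 0.320 to 1.04 CPM.

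Among the HIF alpha subunits, Hif1a averaged 25.4 ± 2.07 FPKM and Epas1 18.8 ± 1.69 FPKM. Hif3a, whose products include inhibitors of the other subunits, had 0 to 32 counts per library and no count in 3 of the 12 libraries. The oxygen sensor Egln1 averaged 22.2 ± 0.852 FPKM, and its highest library was 1.19 times its lowest in CPM, the smallest such ratio among the members. Egln3, itself a HIF target, averaged 1.69 ± 0.546 FPKM. The glucose transporter Slc2a1 averaged 22.4 ± 3.34 FPKM. Of the hexokinases, which trap glucose in the cell as a phosphate ester, Hk2 averaged 17.5 ± 1.74 FPKM, overlapping Slc2a1, and Hk1 10.3 ± 1.31 FPKM. Vegfa averaged 26.0 ± 3.29 FPKM and Bnip3l, a receptor for mitophagy, 34.2 ± 2.36 FPKM. In all, 6 members averaged over 100 FPKM and 8 under 5 FPKM. For 21 members the highest library was less than 1.5 times the lowest, and for 9 it was at least 2 times the lowest.

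**Figure D1:**
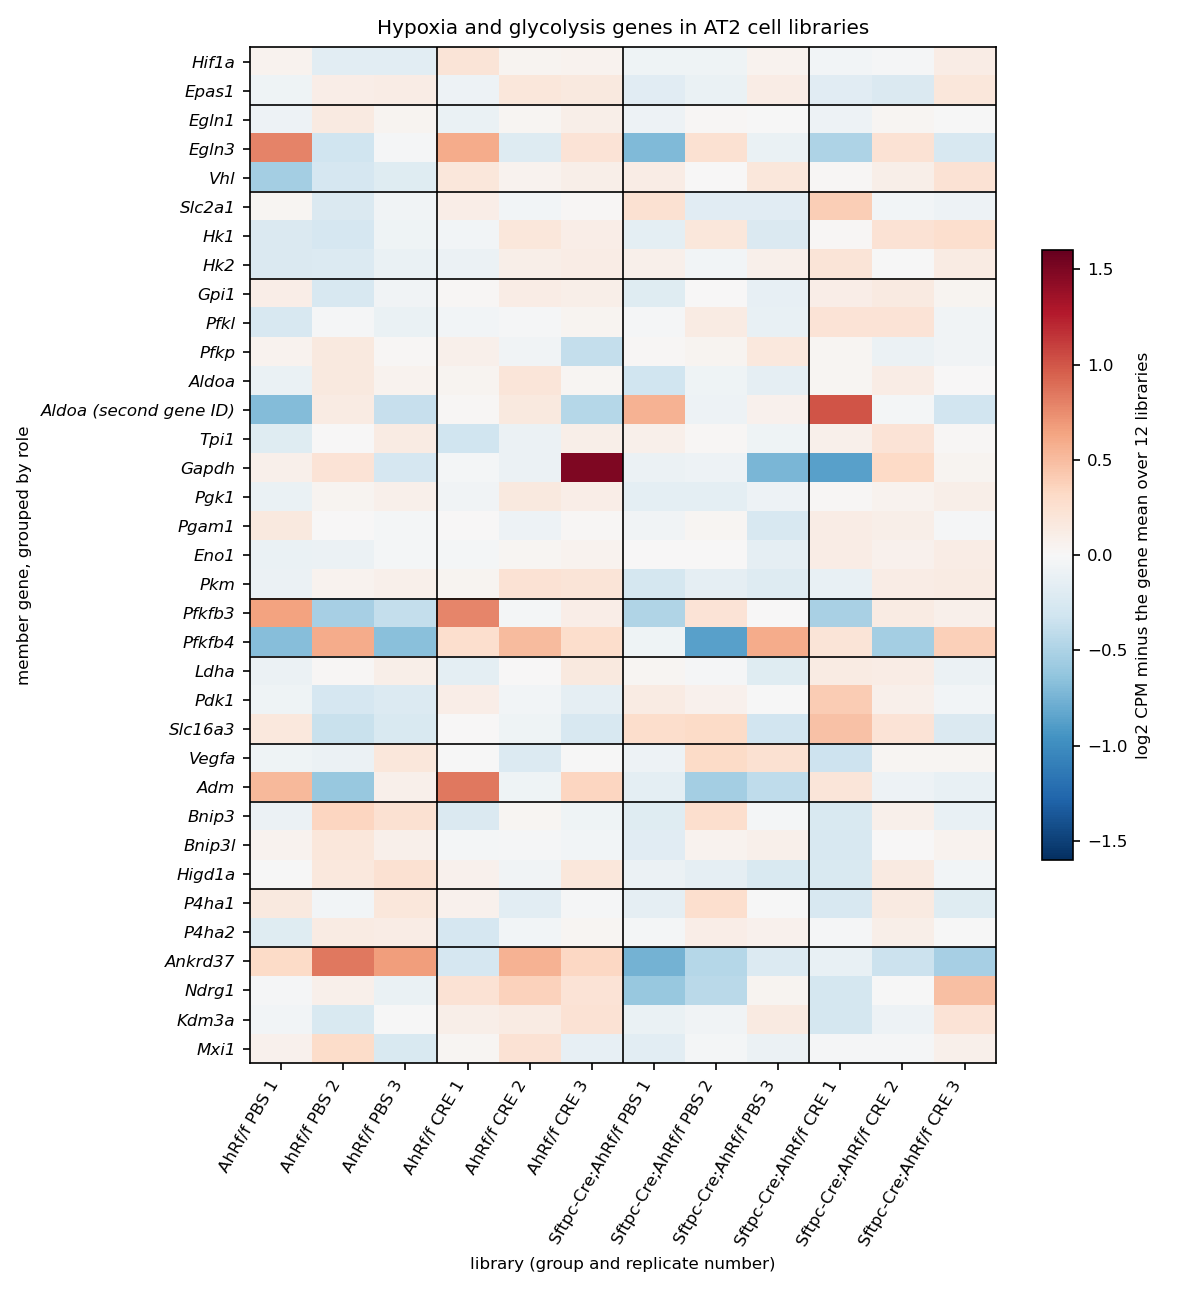
The heat map plots each member gene (rows, grouped by role, Hif3a left out) in the 12 libraries (columns, grouped by genotype and treatment), as log2 CPM minus the gene's mean over the libraries (colour). Most rows stay pale, while Gapdh, Adm, Pfkfb3, Pfkfb4, Egln3, Ankrd37 and the second Aldoa gene ID carry the strong colours, and Gapdh is highest in the third AhRf/f CRE library at 104 CPM.

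HIF with ARNT reads the core ACGTG or GCGTG, and AhR with ARNT reads the core GCGTG, commonly within TNGCGTG. The 250 bases before the annotated start were searched on both strands for these letters in 46 windows of 32 symbols (RefSeq, GRCm38.p6). No window was given for Bnip3l, Ndrg1 and Epas1. ACGTG occurred in 21 of the 46 windows (45.7%), against 16.6% of all 32851 windows. GCGTG occurred in 23 (50.0%), against 28.2% of all windows. The longer TNGCGTG, which contains GCGTG, occurred in 4 (8.70%), against 4.10%, and the E-box CACGTG, which contains ACGTG on both strands, in 4 (8.70%), against 6.02%. At least 1 core was present in 35 of the 46 windows (76.1%, against 38.6% of all windows). These belong to 29 symbols, and Gpi1, Tpi1 and Vhl had no core in any window. Windows of the same gene can overlap, and a match describes letters, not binding. Members were chosen in part as known HIF targets, so their larger share of cores is no independent result. The windows of all genes were not matched to those of the members in base composition.

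The 250 bases are shown for Pgk1, Pkm, Hif1a and Adm, whose CRE responses are described below, for Ankrd37, the one member that passed the study's rule in any comparison, and for the first window of Ldha and the window of Bnip3, which held the most matches (5 each). Pkm has 2 windows, and the one shown is the second, which holds the core, while the first holds none. Capitals mark ACGTG or GCGTG, or CACGT or CACGC where the core is on the other strand. The sequences are read 5′ to 3′ on the gene's strand.
Pgk1 (chrX:106186850-106187099, plus strand): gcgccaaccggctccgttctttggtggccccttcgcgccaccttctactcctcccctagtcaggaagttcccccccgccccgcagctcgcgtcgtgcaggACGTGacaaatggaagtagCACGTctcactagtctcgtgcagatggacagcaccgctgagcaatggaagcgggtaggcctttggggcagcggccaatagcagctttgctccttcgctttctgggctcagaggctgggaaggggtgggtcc
Pkm (chr9:59656977-59657226, plus strand): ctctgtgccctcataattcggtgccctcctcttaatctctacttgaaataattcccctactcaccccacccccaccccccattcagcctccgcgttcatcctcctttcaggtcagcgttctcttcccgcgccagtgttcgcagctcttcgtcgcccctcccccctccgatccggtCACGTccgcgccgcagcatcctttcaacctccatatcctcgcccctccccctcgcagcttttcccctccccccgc
Hif1a (chr12:73907617-73907866, plus strand): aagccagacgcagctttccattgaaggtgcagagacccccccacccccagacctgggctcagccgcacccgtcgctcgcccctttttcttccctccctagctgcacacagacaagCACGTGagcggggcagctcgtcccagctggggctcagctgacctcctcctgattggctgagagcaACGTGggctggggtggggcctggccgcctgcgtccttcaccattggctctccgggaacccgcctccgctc
Adm (chr7:110627407-110627656, plus strand): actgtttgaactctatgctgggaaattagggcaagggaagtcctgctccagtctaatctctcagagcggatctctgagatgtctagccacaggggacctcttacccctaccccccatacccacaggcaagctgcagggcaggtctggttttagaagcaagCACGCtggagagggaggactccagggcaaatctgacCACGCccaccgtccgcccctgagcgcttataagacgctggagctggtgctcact
Ankrd37 (chr8:45999851-46000100, minus strand): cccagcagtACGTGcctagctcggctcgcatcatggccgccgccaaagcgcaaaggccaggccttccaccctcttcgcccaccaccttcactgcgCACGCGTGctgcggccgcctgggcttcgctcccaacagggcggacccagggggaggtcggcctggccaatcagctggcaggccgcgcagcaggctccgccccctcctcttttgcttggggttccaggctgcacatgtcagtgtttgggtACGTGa
Ldha (chr7:46845554-46845803, plus strand): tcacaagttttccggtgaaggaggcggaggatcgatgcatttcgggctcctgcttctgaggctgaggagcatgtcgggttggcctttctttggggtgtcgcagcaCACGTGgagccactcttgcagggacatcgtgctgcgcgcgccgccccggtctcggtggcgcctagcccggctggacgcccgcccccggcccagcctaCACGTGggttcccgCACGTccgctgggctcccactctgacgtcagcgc
Bnip3 (chr7:138909507-138909756, minus strand): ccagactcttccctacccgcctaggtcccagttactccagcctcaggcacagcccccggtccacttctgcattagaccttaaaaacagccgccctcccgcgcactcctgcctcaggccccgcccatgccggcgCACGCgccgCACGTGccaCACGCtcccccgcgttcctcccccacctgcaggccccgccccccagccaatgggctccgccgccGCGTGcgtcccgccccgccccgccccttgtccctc
Pgk1 holds 2 ACGTG cores, the second Pkm window 1 and Hif1a 3, counting a CACGTG as 2. Adm holds 2 GCGTG cores and no ACGTG. Ankrd37 holds 2 of each, and Bnip3 holds 2 ACGTG and 3 GCGTG.

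**Figure D2:**
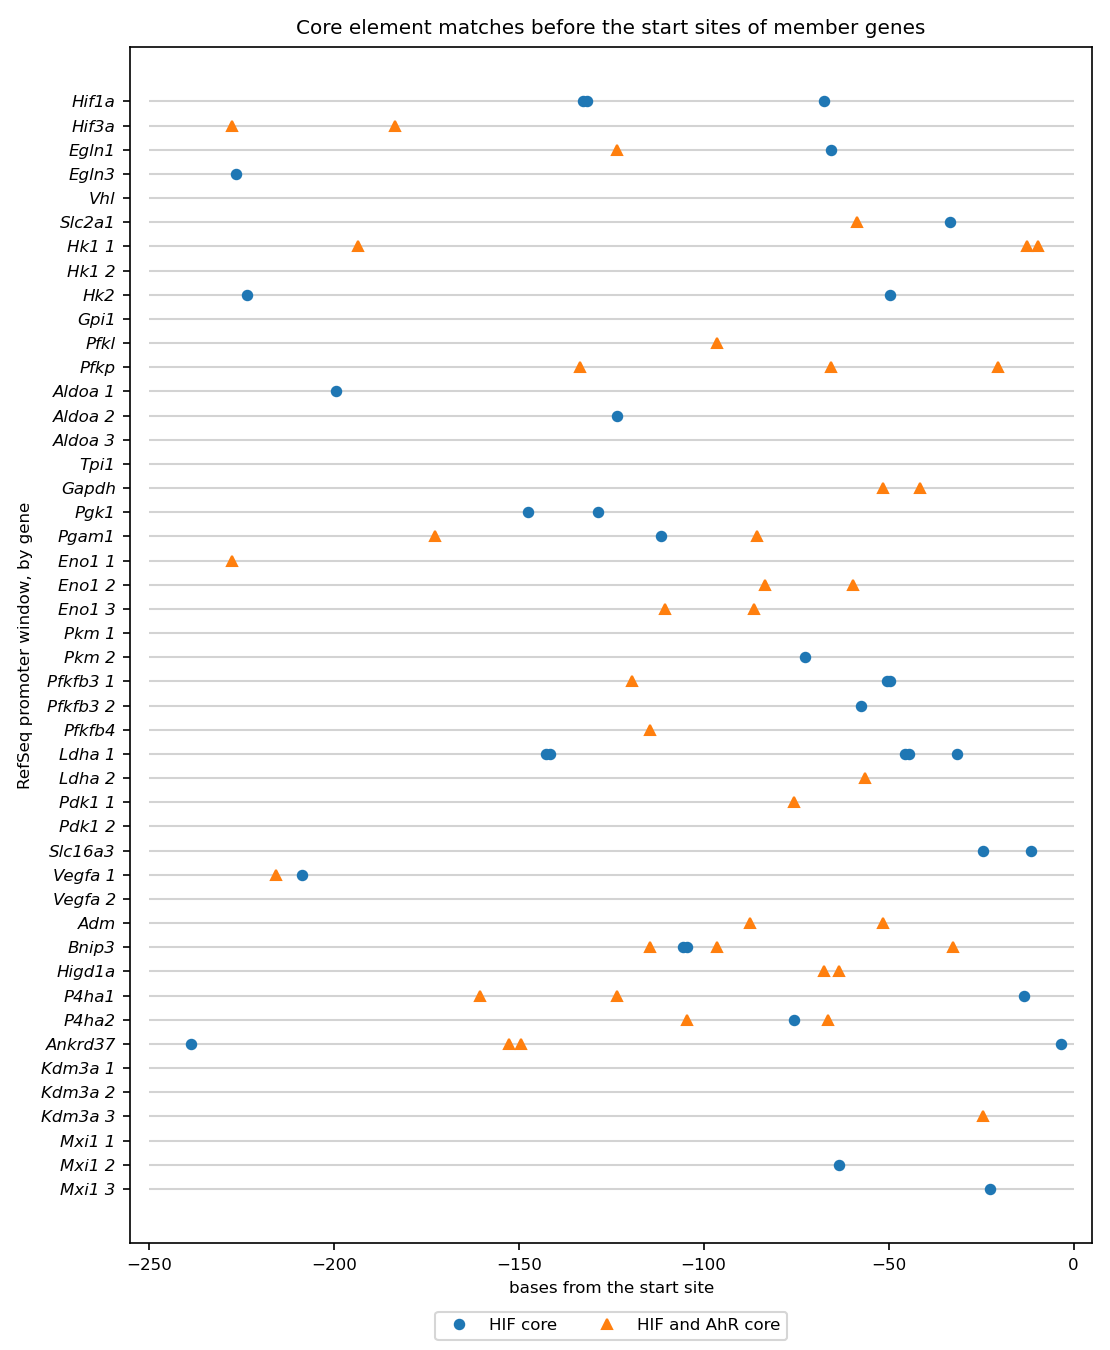
The map places each match to the cores by its distance in bases before the annotated start (x axis), with 1 line for each of the 46 promoter windows. Circles are ACGTG and triangles are GCGTG, the core that AhR also reads, and 35 of the 46 lines hold at least 1. The lines of Gpi1, Tpi1 and Vhl are empty, as is at least 1 line each of Aldoa, Hk1, Kdm3a, Mxi1, Pdk1, Pkm and Vegfa, which have matches in another window.

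The first question was whether CRE moved these genes in AhRf/f cells. By edgeR's quasi-likelihood fit, with p-values adjusted over all 20612 genes (Benjamini-Hochberg), none of the 36 passed 0.05, where 0.233% of all genes did, and the lowest adjusted p was 0.166 for Vhl. At an unadjusted p under 0.05 there were 4 members, all higher with CRE (Vhl, Hk2, Hif1a and Hk1), against a background of 9.36% of all genes. DESeq2 called 1 (Vhl), with 414 of all 20612 genes called, and limma called none after adjustment. The study's rule (limma on log2 CPM, an unadjusted p under 0.05 and a log2 fold change over 0.5 in size) took none, against 4.11% of all genes. In all, 22 were higher and 14 lower with CRE, with a median log2 fold change of 0.06, where the median over all genes was close to 0. Of the 11 glycolytic enzyme genes 8 were higher and 3 lower, none at an unadjusted p under 0.05. The 11 include the second Aldoa gene ID, at 0.320 to 1.04 CPM, and Gapdh, whose counts are uncertain as described below. Gapdh was among the 8, but its log2 fold change was -0.0887 without the third AhRf/f CRE library.

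In Sftpc-Cre;AhRf/f cells the same test called none of the 36, against 0.262% of all genes, with a lowest adjusted p of 0.618. At an unadjusted p under 0.05 there were 5, all glycolytic enzymes and all higher with CRE (Pkm, Pgk1, Aldoa, Eno1 and Gpi1), against 6.48% of all genes. The study's rule took none, against 3.38%, and neither DESeq2 nor limma with adjustment called any. In this genotype 26 were higher and 10 lower with CRE, with a median log2 fold change of 0.11. Of the 11 glycolytic enzyme genes, again with Gapdh and the second Aldoa gene ID, 10 were higher and 1 lower. The counts by direction in each genotype are given without the share over all genes, so they are not read as a shift of the pathway.

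Averaged over both genotypes, edgeR again called none, against 1.10% of all genes, and neither did DESeq2 or limma with adjustment. At an unadjusted p under 0.05 there were 9, all higher with CRE: Pkm, Vhl, Hk1, Eno1, Gpi1, Hk2, Ndrg1, Pgk1 and Aldoa, against 11.1% of all genes. The study's rule took none, against 4.02%. The differences were small. The 95% interval of the log2 fold change lay within ±0.5 for 27 of the 36 (75.0%).

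**Figure D3:**
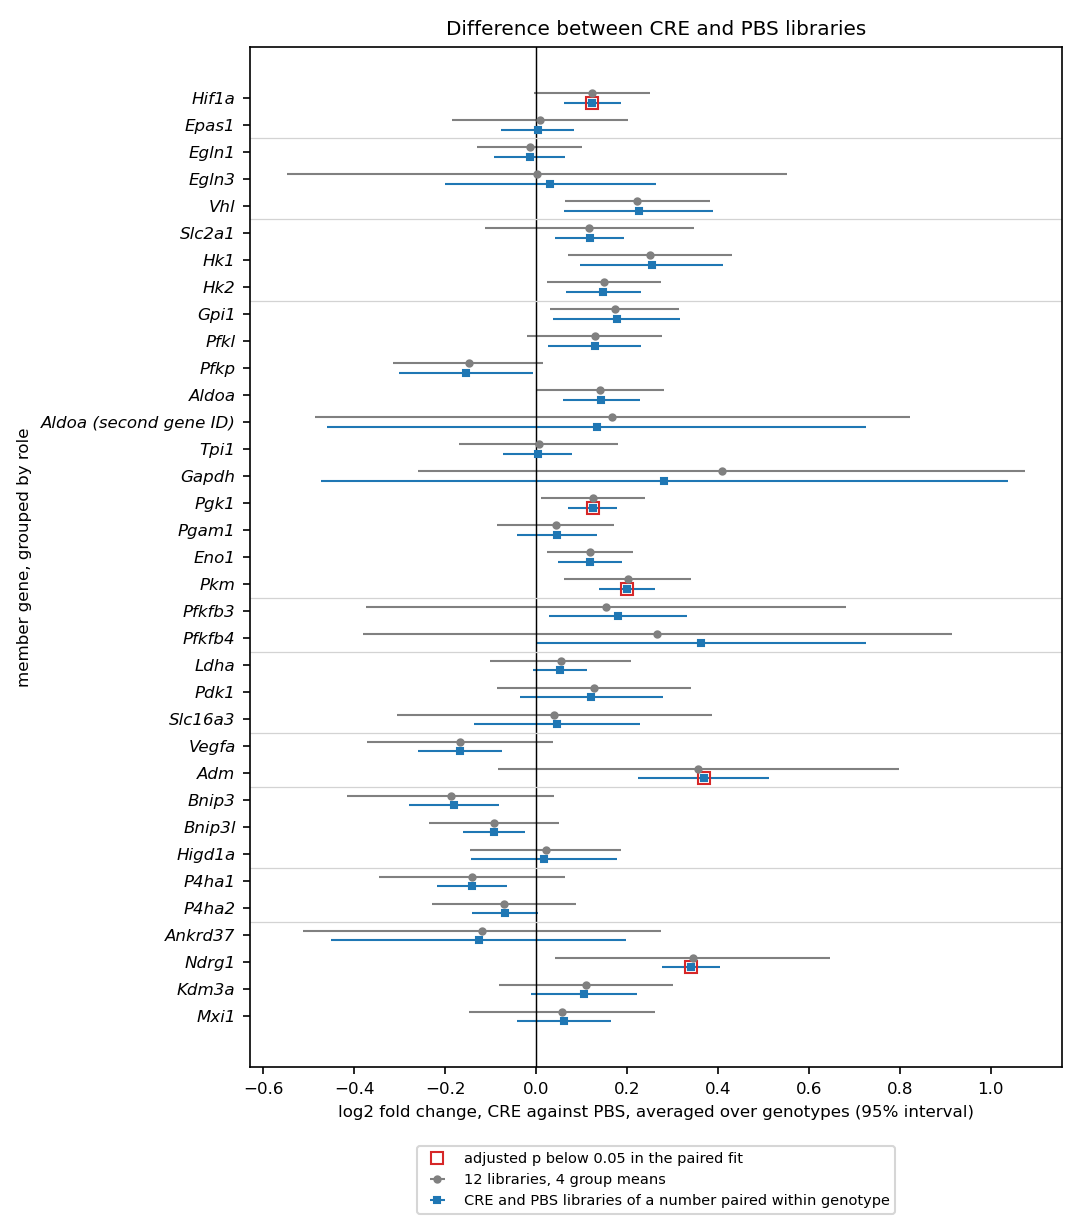
The plot gives the log2 fold change of CRE against PBS (x axis) for each member averaged over both genotypes, Hif3a left out. Grey circles are the fit without pairing, blue squares the paired fit described next, bars are 95% intervals and red squares mark the 5 members with a paired adjusted p below 0.05, all to the right of 0.

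Libraries with the same number deviated together within each genotype (every correlation over 0.1), so CRE and PBS were also compared within these pairs. No label states that libraries of the same number belong together. The pairing was read from the counts that were then tested, and the paired p-values of edgeR hold only if it is right. With the pairing, edgeR called 2 of the 36 in AhRf/f cells (Ndrg1 and Hif1a), against 3.63% of all genes. It called 3 in Sftpc-Cre;AhRf/f cells (Ndrg1, Pkm and Pgk1), against 2.13%, and 5 averaged over the genotypes (Ndrg1, Pkm, Adm, Pgk1 and Hif1a), against 6.59%. All of these were higher with CRE. By direction alone, 10 members were higher with CRE in 6 of 6 pairs (Hif1a, Slc2a1, Hk1, Hk2, Pfkl, Pgk1, Eno1, Pkm, Adm and Ndrg1), against 7.57% of all genes, and 3 were lower in 6 of 6 pairs (Bnip3, Bnip3l and P4ha1), against 6.79%. The AT1, club and ciliated, fibroblast, endothelial and alveolar macrophage marker sums given above were lower with CRE in 6 of 6 pairs too, and their part in these counts was not tested.

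Ndrg1, a stress-responsive gene induced by hypoxia (chr15:66929318-66969640, GRCm38), was the member called with pairing in both genotypes. In AhRf/f cells it was at 277, 297 and 259 CPM with PBS and at 329, 362 and 326 CPM with CRE. In Sftpc-Cre;AhRf/f cells it was at 184, 207 and 289 CPM with PBS and at 231, 278 and 389 CPM with CRE. The groups did not overlap in AhRf/f cells, and in Sftpc-Cre;AhRf/f cells they did, with the third pair the highest. The paired log2 fold change was 0.29 (SE 0.04, adjusted p = 0.0145) in AhRf/f cells, lost whichever 1 pair was left out, and 0.39 (SE 0.04, adjusted p = 0.00533) in Sftpc-Cre;AhRf/f cells, lost without pair 3. Averaged, it was 0.34 (SE 0.03, adjusted p = 0.000942), where the fit without pairing gave an adjusted p of 0.367. In the averaged paired comparison Ndrg1 was called whichever pair was left out (adjusted p 0.00314 to 0.00841).

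Pkm (chr9:59656368-59679375) was at 1848, 2049 and 2082 CPM in the AhRf/f PBS libraries and at 2030, 2329 and 2278 CPM with CRE, which overlapped. The Sftpc-Cre;AhRf/f libraries were at 1629, 1786 and 1712 CPM with PBS and at 1814, 2137 and 2156 CPM with CRE, without overlap. The paired log2 fold change in the latter cells was 0.25 (SE 0.04, adjusted p = 0.0236), lost without pair 2 or pair 3. Averaged over the genotypes it was 0.20 (SE 0.03, adjusted p = 0.00653), and it was called whichever pair was left out (adjusted p 0.00678 to 0.0273). Without pairing its adjusted p was 0.227.

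Pgk1, the first enzyme of glycolysis to yield ATP (chrX:106187100-106203699), was at 526, 527 and 555 CPM with PBS and at 596, 611 and 628 CPM with CRE in Sftpc-Cre;AhRf/f cells. The groups did not overlap there, and the paired log2 fold change was 0.19 (SE 0.03, adjusted p = 0.0358). Pgk1 in AhRf/f cells was at 547, 609 and 625 CPM with PBS and at 566, 657 and 632 CPM with CRE, which overlapped. Averaged, the paired log2 fold change was 0.12 (SE 0.02, adjusted p = 0.0238), and both calls were lost whichever 1 pair was left out.

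Hif1a (chr12:73901375-73947530, on the chromosome of Ahr and 38.4 Mb from it) was at 173, 147 and 147 CPM in the AhRf/f PBS libraries and at 192, 171 and 173 CPM with CRE. The Sftpc-Cre;AhRf/f libraries were at 159, 158 and 172 CPM with PBS and at 162, 164 and 180 CPM with CRE. The groups overlapped in both genotypes, with each CRE library above its PBS partner. The paired log2 fold change was 0.20 (SE 0.04, adjusted p = 0.0409) in AhRf/f cells and 0.12 averaged (SE 0.03, adjusted p = 0.0402). Both calls were lost whichever 1 pair was left out.

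Adm, which encodes the vasodilator peptide adrenomedullin (chr7:110627661-110629820), was at 20.7, 9.48 and 15.3 CPM with PBS and at 25.9, 13.8 and 18.4 CPM with CRE in AhRf/f cells. The Sftpc-Cre;AhRf/f libraries were at 13.0, 9.96 and 10.9 CPM with PBS and at 16.5, 13.7 and 13.3 CPM with CRE, without overlap. The averaged paired log2 fold change was 0.37 (SE 0.06, adjusted p = 0.0161), against an adjusted p of 0.588 without pairing, and the call was lost whenever a Sftpc-Cre;AhRf/f pair was left out. The library-to-library spread of Adm in AhRf/f cells, over 2 times from lowest to highest with PBS, was larger than its change with CRE.

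**Figure D4:**
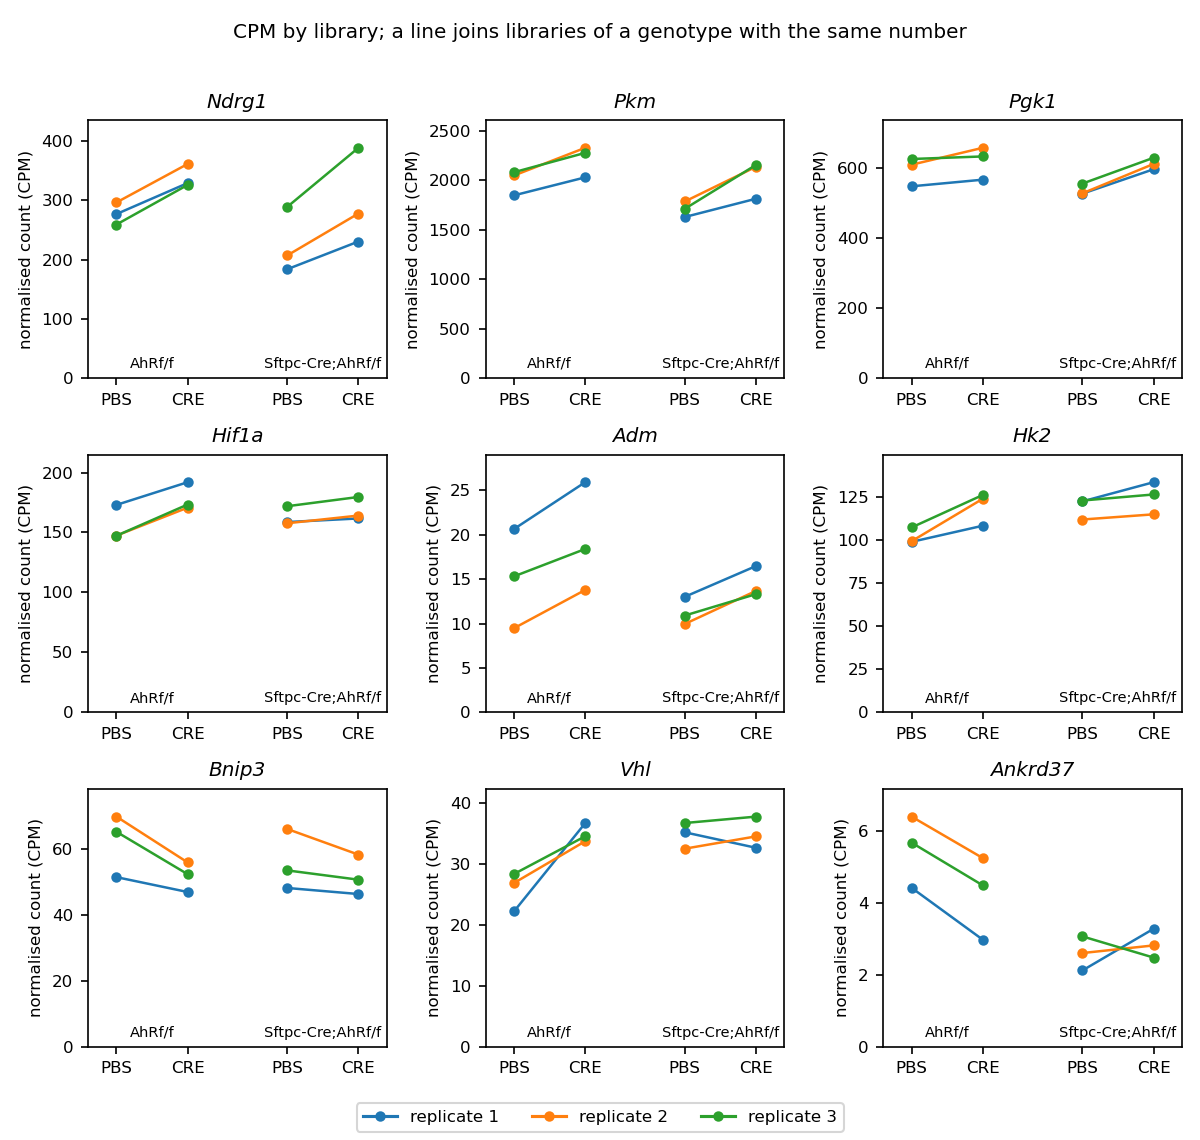
Each line joins the PBS and the CRE library of the same number (points, CPM on the y axis) for 9 members in both genotypes. For Ndrg1, Pkm, Pgk1, Hif1a and Adm all 6 lines rise, for Bnip3 all 6 fall, and Vhl is lowest in the 3 AhRf/f PBS libraries.

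Leaving out the 4 libraries numbered 1, which hold the most leukocyte marker RNA, left 0 paired calls in AhRf/f cells, 1 in Sftpc-Cre;AhRf/f cells (Ndrg1) and 2 averaged (Ndrg1 and Pkm). The calls were lost with log2 fold changes of similar size. In AhRf/f cells Ndrg1 had 0.31 (adjusted p = 0.0798) and Hif1a 0.23 (adjusted p = 0.146) without these libraries, and in Sftpc-Cre;AhRf/f cells Pkm had 0.29 (adjusted p = 0.0718) and Pgk1 0.19 (adjusted p = 0.223). Averaged over genotypes, the log2 fold change of Ndrg1 was 0.36 (adjusted p = 0.0165) and that of Pkm 0.22 (adjusted p = 0.0276).

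The hexokinases did not pass either test. Hk1 was at 82.8, 80.7 and 92.4 CPM with PBS and at 93.9, 109 and 104 CPM with CRE in AhRf/f cells. The groups did not overlap, and the log2 fold change without pairing averaged 0.25 over the genotypes (SE 0.08, adjusted p = 0.247). Hk2, the inducible hexokinase, was at 98.8, 99.1 and 107 CPM with PBS and at 108, 124 and 126 CPM with CRE in AhRf/f cells, also without overlap. Its log2 fold change there was 0.23 (adjusted p = 0.389). Both hexokinases overlapped between treatments in Sftpc-Cre;AhRf/f cells. Pfkl, the liver-type phosphofructokinase subunit, ranged from 63.2 to 88.3 CPM over the 12 libraries.

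Bnip3, Bnip3l and P4ha1 had values on the other side. Bnip3, a mitophagy receptor, was at 51.3, 69.7 and 65.1 CPM with PBS and at 46.8, 55.8 and 52.2 CPM with CRE in AhRf/f cells. It was at 48.1, 65.9 and 53.4 CPM with PBS and at 46.2, 58.2 and 50.6 CPM with CRE in Sftpc-Cre;AhRf/f cells, and the groups overlapped in both genotypes. Its averaged paired log2 fold change was -0.18 (adjusted p = 0.0529). P4ha1, a subunit of prolyl 4-hydroxylase for collagen, had -0.14 (adjusted p = 0.0515) and Vegfa -0.17 (adjusted p = 0.0530) on the same scale, so these lay just outside the threshold. Vegfa was at 118, 116 and 139 CPM with PBS and at 123, 106 and 122 CPM with CRE in AhRf/f cells, and at 117, 153 and 146 CPM with PBS and at 98.0, 126 and 126 CPM with CRE in Sftpc-Cre;AhRf/f cells.

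Vhl, the subunit of the ubiquitin ligase that recognises hydroxylated HIF alpha (chr6:113623959-113631633), stood apart in 1 group. It was at 22.3, 26.9 and 28.4 CPM in the AhRf/f PBS libraries and at 36.8, 33.8 and 34.6 CPM in the AhRf/f CRE libraries. It was at 35.3, 32.6 and 36.8 CPM in the Sftpc-Cre;AhRf/f PBS libraries and at 32.7, 34.6 and 37.8 CPM with CRE. All 3 AhRf/f PBS libraries lay below the other 9, which spanned 32.6 to 37.8 CPM. The log2 fold change with CRE in AhRf/f cells was 0.44 (95% interval 0.21 to 0.66, edgeR adjusted p = 0.166), and DESeq2 gave an adjusted p of 0.00804. Between genotypes with PBS it was 0.43 (edgeR adjusted p = 0.214, DESeq2 adjusted p = 0.0134). The 2 comparisons share the AhRf/f PBS libraries. The difference of the CRE response between genotypes was -0.43 (95% interval -0.75 to -0.11, unadjusted p = 0.0125, adjusted p = 1).

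The second question was whether these genes differed between Sftpc-Cre;AhRf/f and AhRf/f cells. Only the Sftpc-Cre;AhRf/f mice carry Cre, so loss of AhR and the presence of Cre cannot be told apart here. With PBS, edgeR called none of the 36, against 0.150% of all genes. At an unadjusted p under 0.05 there were 2 higher (Vhl and Hk2) and 4 lower (Ankrd37, Higd1a, Pkm and Aldoa) in Sftpc-Cre;AhRf/f cells, against 8.37% of all genes. DESeq2 called 2 (Ankrd37 and Vhl), with 234 of all genes called, and limma with adjustment none. The study's rule took 1 (Ankrd37), against 4.10%. With CRE, edgeR, DESeq2 and limma with adjustment called none, against 0.170% of all genes by edgeR, and 1 member, Ankrd37, had an unadjusted p under 0.05, against 5.95%. The study's rule took none there, against 3.42%. Averaged over treatments, edgeR called none, against 0.631%, and limma with adjustment none, while DESeq2 called 1 (Ankrd37), with 522 of all genes called. In that comparison 2 were higher (Vhl and Hk2) and 3 lower (Ankrd37, Higd1a and Pkm) at an unadjusted p under 0.05, against 9.93%, and the study's rule took 1, against 4.11%.

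Ankrd37, an ankyrin repeat gene induced through HIF-1 (chr8:45996902-46005707), was at 4.42, 6.39 and 5.67 CPM in the AhRf/f PBS libraries and at 2.98, 5.24 and 4.48 CPM with CRE. It was at 2.12, 2.60 and 3.07 CPM in the Sftpc-Cre;AhRf/f PBS libraries and at 3.28, 2.82 and 2.48 CPM with CRE. The genotypes did not overlap with PBS, and with CRE the lowest AhRf/f library lay among the Sftpc-Cre;AhRf/f libraries. The log2 fold change was -1.08 with PBS (SE 0.25, 95% interval -1.64 to -0.52, edgeR adjusted p = 0.214, DESeq2 adjusted p = 0.00837) and -0.57 with CRE (adjusted p = 0.832). Averaged, it was -0.82 (SE 0.18, 95% interval -1.22 to -0.43, edgeR adjusted p = 0.0898, DESeq2 adjusted p = 0.00169). Without the first AhRf/f CRE library the edgeR adjusted p was 0.0478. On the opposite strand Ankrd37 shares 57 exon bases with Ufsp2, and it also overlaps Lrp2bp (349 bases). Scaled to library total without TMM, Ufsp2 averaged 35.7 CPM and Lrp2bp 0.618 CPM, against 3.78 CPM for Ankrd37. The kit keeps strand, but how the counting used it is not given in the sources used here.

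Higd1a, a mitochondrial protein induced by hypoxia, was at 62.1, 70.0 and 73.6 CPM in the AhRf/f PBS libraries and at 58.2, 56.2 and 52.7 CPM in the Sftpc-Cre;AhRf/f PBS libraries. These did not overlap, and the log2 fold change was -0.30 (adjusted p = 0.490). With CRE the genotypes overlapped. For Pkm the log2 fold change between genotypes was -0.22 with PBS (adjusted p = 0.537), and for Aldoa -0.21 (adjusted p = 0.566). Pkm shares 767 exon bases with Gm49759 on the same strand. Pfkp, the platelet-type phosphofructokinase subunit, shares 748 with Pitrm1 on the opposite strand.

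The third question was whether the CRE response itself depended on genotype. No member was called for this difference by edgeR, by edgeR with pairing, by DESeq2 or by limma with adjustment, and the share of all genes called by edgeR was 0, with and without pairing. At an unadjusted p under 0.05 there was 1 member (Vhl), against 3.70% of all genes, and the study's rule took none, against 2.30%. The 95% interval of the difference lay within ±0.5 for 19 of the 36, so for the other 17 a difference of that size was not resolved with 3 libraries per group.

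Gapdh needs separate account, because near-identical copies of it are spread over the genome. The annotated gene (chr6:125161715-125166467) was at 39.0, 43.2 and 30.7 CPM in the AhRf/f PBS libraries and at 36.1, 34.7 and 104 CPM with CRE. The Sftpc-Cre;AhRf/f libraries were at 34.7, 35.1 and 22.4 CPM with PBS and at 20.3, 46.1 and 38.3 CPM with CRE. Apart from the third AhRf/f CRE library all values lay between 20.3 and 46.1 CPM. By contrast, 124 annotated copies (at least 95% identity over 200 aligned bases or more) together held 1018 to 1295 CPM, which is 92.1 to 98.4% of the sum of gene and copies. The copy Gm7336 alone ranged from 242 to 787 CPM. The gene and its copies summed to 1057 to 1341 CPM.

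**Figure D5:**
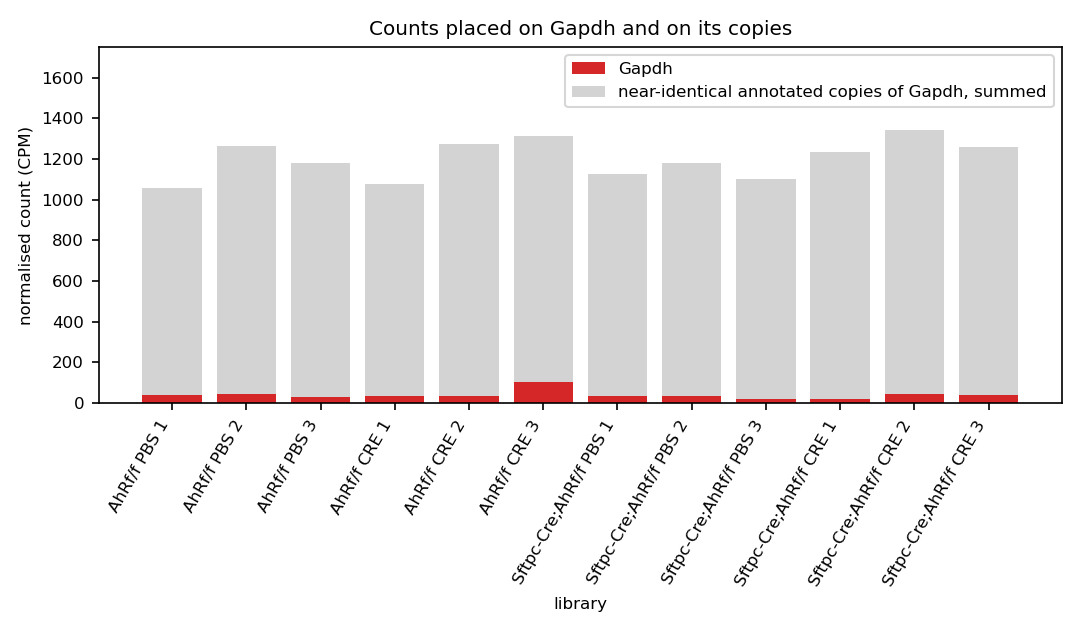
The plot gives, for each of the 12 libraries (x axis), the CPM assigned to Gapdh itself and to its annotated copies. The gene itself (red) takes 20.3 to 104 CPM, and the copies (grey, stacked on it) take 1018 to 1295 CPM.

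For Gapdh alone the log2 fold change with CRE in AhRf/f cells was 0.63, and between genotypes with CRE it was -0.74. Summed with the copies it was 0.07 and 0.06, so the second changed sign. Averaged over genotypes the summed log2 fold change with CRE was 0.12 (SE 0.06, adjusted p = 0.567). Counts assigned to Gapdh are therefore uncertain as a measure of its expression. Copies also took 9.91 to 11.7% of the sum for Eno1, 6.44 to 8.72% for Bnip3l, 4.88 to 6.60% for Pgam1, 2.69 to 3.76% for Pgk1 and 1.02 to 1.38% for Pkm.

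The regulators of fructose 2,6-bisphosphate, which sets the pace of phosphofructokinase, varied between libraries more than between groups. Pfkfb3 was at 37.0, 16.5 and 18.2 CPM in the AhRf/f PBS libraries and at 40.6, 23.1 and 25.5 CPM with CRE. Pfkfb4 was at 13.1, 31.5 and 13.2 CPM in the AhRf/f PBS libraries and at 25.3, 29.8 and 25.5 CPM with CRE. Both overlapped between treatments. Egln3 was at 8.31, 3.86 and 4.75 CPM with PBS and at 7.28, 4.17 and 5.60 CPM with CRE in AhRf/f cells, with the first library of each treatment the highest.

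The other members gave no unadjusted p under 0.05 in any comparison and no call with pairing. Epas1 ranged from 99.4 to 132 CPM, Egln1 from 82.5 to 97.9, Slc2a1 from 74.1 to 114, Tpi1 from 244 to 353, Pgam1 from 186 to 247 and Ldha from 444 to 565 CPM over the 12 libraries. Pdk1, the kinase that keeps pyruvate out of the citric acid cycle, ranged from 10.4 to 16.6 CPM, and Slc16a3, the lactate exporter MCT4, from 10.9 to 19.3 CPM. P4ha2, an alternative subunit to P4ha1, ranged from 89.2 to 118 CPM and the histone demethylase gene Kdm3a from 56.0 to 80.3 CPM. Mxi1, an antagonist of MYC, ranged from 36.4 to 52.9 CPM, and Pfkp from 60.7 to 89.2 CPM. Bnip3l was at 153, 167 and 156 CPM with PBS and at 144, 145 and 143 CPM with CRE in AhRf/f cells, without overlap.

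Beyond these members, 52 further genes of the pathway (HIF partners and sensors, other glycolysis isoforms and other HIF targets) were listed, of which 49 were tested. Averaged over genotypes, edgeR called 2 with CRE against PBS, both higher, against 1.10% of all genes. Gbe1, the glycogen branching enzyme, was at 98.3, 87.3 and 84.3 CPM with PBS and at 139, 139 and 135 CPM with CRE in AhRf/f cells. The Sftpc-Cre;AhRf/f libraries were at 65.3, 73.4 and 82.5 CPM with PBS and at 95.8, 118 and 130 CPM with CRE. The groups did not overlap in either genotype, and the averaged log2 fold change was 0.63 (SE 0.08, adjusted p = 0.00438). Ddit4, an inhibitor of mTORC1 induced by hypoxia and other stresses, was at 91.2, 95.8 and 93.2 CPM with PBS and at 111, 112 and 111 CPM with CRE in AhRf/f cells. In Sftpc-Cre;AhRf/f cells it was at 90.8, 81.4 and 87.1 CPM with PBS and at 103, 105 and 104 CPM with CRE. The groups did not overlap here either, and the averaged log2 fold change was 0.26 (SE 0.04, adjusted p = 0.00803).

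With pairing, 6 of the 49 were higher (Gbe1, Ddit4, Hmox1, Tfrc, Plod2 and Lox) and 3 lower (Ldhb, Bhlhe40 and Vegfb) with CRE averaged over genotypes, against 6.59% of all genes. In AhRf/f cells 5 were higher (Gbe1, Ddit4, Hmox1, Tfrc and Ep300) and 2 lower (Ldhb and Bhlhe40), against 3.63%, and in Sftpc-Cre;AhRf/f cells 3 were higher (Gbe1, Ddit4 and Hmox1), against 2.13%. Hmox1, heme oxygenase, which responds to oxidative stress as well as to HIF, had a paired log2 fold change of 0.54 (SE 0.03, adjusted p = 0.000316) and Ldhb, the heart-type lactate dehydrogenase subunit, -0.31 (SE 0.06, adjusted p = 0.0222). In each single genotype edgeR without pairing called none of the 49 with CRE. Of the 49, 9 had an unadjusted p under 0.05 with CRE in AhRf/f cells, against 9.36% of all genes, and 3 in Sftpc-Cre;AhRf/f cells, against 6.48%, a share near the background. DESeq2 called 2 in each, with 414 and 255 of all genes called. By the study's rule Arnt2, a relative of Arnt, Hmox1 and Gbe1 were higher and Aldoc, an aldolase isoform, lower with CRE in AhRf/f cells, against 4.11% of all genes. Hmox1 and Gbe1 passed it in Sftpc-Cre;AhRf/f cells, against 3.38%, and Arnt2, Pgam2, Hmox1 and Gbe1 averaged, against 4.02%, all higher.

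Between genotypes edgeR and limma with adjustment called none of the 49. There, 1 was higher and 3 lower with PBS at an unadjusted p under 0.05, against 8.37% of all genes, which is again near the background. With CRE 1 was higher and 4 lower, against 5.95%, and averaged 2 were higher and 6 lower, against 9.93%. DESeq2 called 0, 0 and 3 of the 49, with 234, 171 and 522 of all genes called. By the study's rule Lox, a collagen cross-linking enzyme, was higher and Aldoc and Slc2a4 lower in Sftpc-Cre;AhRf/f cells with PBS, against 4.10% of all genes. Slc2a4 averaged only 0.216 CPM in the AhRf/f and 0.0338 CPM in the Sftpc-Cre;AhRf/f PBS libraries, so its difference rests on very few counts. The rule took 2 of the 49 with CRE, both lower, against 3.42%, and 4 averaged, 1 higher and 3 lower, against 4.11%.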

How the data were processed

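RNA-seq of 12 libraries (3 in each of 4 groups) was deposited as counts per gene and as FPKM. The authors aligned reads with STAR 2.7.2b, per the labels. The submitters' processing notes also name Salmon and Partek. The table holds 55450 gene IDs, all found in GENCODE M21 (GRCm38). The deposited counts were tested, and the FPKM values, which the authors normalised by length and depth, were used for levels only.

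Members and gene lists were chosen with earlier results of these data known. Genes passed edgeR's filterByExpr (minimum count 10), and edgeR 4.0.16 (R 4.3.3) with TMM factors fitted the 4 group means over all 12 libraries, by quasi-likelihood, with an adjusted p threshold of 0.05 (Benjamini-Hochberg). The study's rule was run with limma 3.58.1 (log2 CPM, prior count 2). Libraries with the same number were treated as pairs where deviations from group means correlated over 0.1 in all 3 numbers. That held with CRE against PBS (0.729, 0.418 and 0.651 in AhRf/f, 0.589, 0.542 and 0.325 in Sftpc-Cre;AhRf/f cells), and not between genotypes (lowest 0.0416 with PBS and -0.0286 with CRE). Between genotypes the libraries numbered 1 did correlate, at 0.42 with PBS and 0.413 with CRE. Libraries of different numbers reached 0.283 with PBS and 0.361 with CRE there. The paired fit had 4 residual degrees of freedom. Copies were found with BLAST+ 2.17.0. All members are accounted for. Other genes of the pathway are named where edgeR or the study's rule called them with CRE against PBS or between genotypes with PBS. Arnt, Ahr and the AhR targets are given as references. Names of calls by that rule in the other genotype comparisons are not reported here. DESeq2 1.42.0, other scalings, filters and left-out libraries were the alternatives. The fits were tested on simulated data with independent libraries and no pair effect, so that test does not bear on the paired calls.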

Additional observations from a re-analysis of the deposited data

How the results depend on the processing

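Without pairing, edgeR called 0 of the 36 members in each of the 7 comparisons. DESeq2 called 1 with CRE in AhRf/f cells (Vhl), 2 between genotypes with PBS (Ankrd37 and Vhl) and 1 between genotypes averaged over treatments (Ankrd37). The replicate block within genotype gave 2 calls with CRE in AhRf/f cells, 3 in Sftpc-Cre;AhRf/f cells and 5 averaged. A replicate block across all groups, for numbers that are not shown to pair genotypes, gave 1 call with CRE averaged (Pkm) and 1 between genotypes averaged (Pkm). Leaving out libraries in turn gave 0 to 1 calls between genotypes averaged, the call being Ankrd37 without AhRf/f CRE replicate 1. With size factors in the style of DESeq2, the paired counts were 2 in AhRf/f cells, 3 in Sftpc-Cre;AhRf/f cells and 7 averaged. With pairs left out in turn, the paired counts ran from 0 to 0 in AhRf/f cells, from 0 to 2 in Sftpc-Cre;AhRf/f cells and from 2 to 4 averaged. Without the 4 libraries numbered 1, an alternative chosen after seeing the data, the paired counts were 0, 1 and 2. The causes of these changes were not tested.

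Median log2 fold changes over the members were small. With libraries left out in turn they ran from -0.0774 to -0.0065 between genotypes with PBS (all libraries -0.0487, nearest 0 without Sftpc-Cre;AhRf/f PBS replicate 1), from 0.0668 to 0.1093 with CRE averaged (all libraries 0.1136, lowest without Sftpc-Cre;AhRf/f CRE replicate 1) and from 0.0195 to 0.0950 for the difference of the CRE response (all libraries 0.0351, highest without Sftpc-Cre;AhRf/f PBS replicate 2). Without the libraries numbered 1 they were 0.0422 with CRE in Sftpc-Cre;AhRf/f cells (all libraries 0.11), 0.0725 with CRE averaged, 0.0096 between genotypes averaged (all libraries -0.03) and -0.0138 for the difference of the response. Gapdh changed sign in both comparisons given for it. With CRE in AhRf/f cells it was -0.0887 without AhRf/f CRE replicate 3 (left-out range -0.0887 to 0.9006), and between genotypes with CRE it was 0.0647 once summed with its copies. Of the values for single genes under the alternatives, 828 kept direction and side of the threshold and 2 changed sign. The fit without pairing was the reference for 17 that passed only under the alternative, which include the paired calls given above. The paired fit was the reference for 34 that passed only there. Their alternatives left out pairs or the libraries numbered 1. With 3 libraries per group, an interval that reaches beyond ±0.5 on the log2 scale leaves a change of that size unresolved.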
